A study of Mus musculus with 4 samples.

Results

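The keratin genes were read in mouse skin RNA, in 1 library for each of the groups NC, MNs, PRP and PRP-MNs. PRP is platelet-rich plasma, a platelet concentrate of blood, and MNs are microneedles, arrays of fine needles that pass a substance into the skin. PRP-MNs combines both by its label, and NC, which the labels do not spell out, was the reference. Strain, sex, age, body site, dose, time of harvest, hair cycle stage and the number of animals behind a library were not given in the labels. The members were all rows of the deposited table whose symbol is Krt followed by a number and at most 1 letter. This gave 53 of 25571 genes, 28 of type I and 25 of type II. Keratin-associated proteins were not members. Because each group is a single library, differences could not be checked against replicates and no p-value was computed. Every value describes these 4 libraries.

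Keratins are the intermediate filament proteins of epithelial cells. A filament is built from a type I (acidic) and a type II (basic) partner, and each epithelial layer makes its own pairs. In skin, basal keratinocytes make Krt5 with Krt14, cells that leave the basal layer switch to Krt1 with Krt10, and keratinocytes at a wound or in hyperproliferative epidermis make Krt6a, Krt6b, Krt16 and Krt17, which the hair follicle also uses. The inner root sheath, the sleeve that moulds the growing hair, and the hair shaft itself have keratins of their own.

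All 27 type I genes other than Krt18 lay on chromosome 11, within 1037 kb, and the 25 type II genes lay on chromosome 15, within 657 kb, with Krt18 beside them (GENCODE release M21, GRCm38). Members of 1 type resemble each other, which bears on how fragments were assigned. The coding sequences of Krt6a (chromosome 15 from 101689910 to 101694307) and Krt6b (101676023 to 101680287 on the same chromosome) were 97.6% identical. Of all stretches of 50 bases in the Krt6a coding sequence, 60.4% also occurred in Krt6b, and the longest run of identical bases was 280. Their FPKM values are therefore uncertain where fragments could be split between them, and their sum is given as well. Krt14 and Krt16 were the next closest pair among abundant members, with 83.2% identity and 13.3% of the stretches of Krt14 shared. Krt5 shared 8.87% of its stretches with Krt6a. To show how little tells the copies apart, the window of 60 coding bases (817 to 876) with the most differences is printed, with the 10 differing bases in capitals.
Krt6a: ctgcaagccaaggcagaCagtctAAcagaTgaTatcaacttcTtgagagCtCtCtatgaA
Krt6b: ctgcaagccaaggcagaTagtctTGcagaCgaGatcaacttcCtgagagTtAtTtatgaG

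Promoter sequences from RefSeq (GRCm38.p6) were found for 36 of the 53 members. The 150 bases before the start are shown for 3 inner root sheath keratins and for Krt10, Krt77 and Krt79, members that stood at different levels in the 4 libraries, each with its start at the 3′ end and on the minus strand. Capitals mark the letters TATAAA of the TATA box and the letters CCAAT of the box named after them, on either strand. The AP-1 motif, spelled TGANTCA, and the Sp1 motif, spelled GGGCGG, were searched in the same way and do not occur in the printed stretches. Krt77 and Krt79 hold none of the 4 spellings. The lines give Krt25 (chr11:99322952-99323101), Krt28 (chr11:99374904-99375053), Krt71 (chr15:101743098-101743247), Krt10 (chr11:99389365-99389514), Krt77 (chr15:101869706-101869855) and Krt79 (chr15:101940325-101940474).
Krt25: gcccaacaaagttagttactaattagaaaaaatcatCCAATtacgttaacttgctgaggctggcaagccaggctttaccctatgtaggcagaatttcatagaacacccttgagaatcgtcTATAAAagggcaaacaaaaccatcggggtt
Krt28: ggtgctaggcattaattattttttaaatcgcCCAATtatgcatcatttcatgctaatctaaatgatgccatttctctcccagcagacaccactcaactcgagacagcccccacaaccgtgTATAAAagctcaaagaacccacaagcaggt
Krt71: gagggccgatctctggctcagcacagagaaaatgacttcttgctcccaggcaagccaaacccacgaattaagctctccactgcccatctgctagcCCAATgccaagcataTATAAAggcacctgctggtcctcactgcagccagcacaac
Krt10: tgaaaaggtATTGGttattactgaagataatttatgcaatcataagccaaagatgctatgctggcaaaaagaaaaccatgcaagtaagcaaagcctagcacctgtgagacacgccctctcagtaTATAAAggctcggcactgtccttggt
Krt77: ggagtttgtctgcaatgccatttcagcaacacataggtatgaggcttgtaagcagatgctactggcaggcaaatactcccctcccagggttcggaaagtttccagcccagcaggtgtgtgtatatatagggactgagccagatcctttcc
Krt79: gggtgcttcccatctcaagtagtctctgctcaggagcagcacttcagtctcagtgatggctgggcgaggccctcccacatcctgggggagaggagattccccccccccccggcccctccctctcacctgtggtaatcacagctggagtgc
TATAAA stood in the window of 6 of the 7 inner root sheath genes (Krt25, Krt26, Krt27, Krt28, Krt71 and Krt73) and of 5 of the 7 hair shaft genes with a promoter, against 7.57% of 32851 promoter windows of the same length. Among the 5 suprabasal genes with a promoter it stood in Krt10 alone. Only the exact letters were searched, in members and in all windows alike. Close variants were not counted, such as tatataa in Krt2 and Krt24 and tatatata in Krt77. The count therefore does not show that the other suprabasal genes lack a TATA box. CCAAT stood in 24.5% of all windows, GGGCGG in 28.6% and TGANTCA in 4.24%. A match is a run of letters and not a shown site. The promoters of Krt1, Krt6a, Krt6b, Krt15, Krt16, Krt17 and Krt80 were not printed.

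Levels are FPKM, which divides fragments by transcript length and by depth, so that genes can be compared. Depths read from the steps between low values lay between about 15.9 M and 19.3 M fragments. A count of 3 fragments, taken as the lowest detectable level, was then 0.155 to 0.189 FPKM on a transcript of 1 kb, a limit that covers counting error only. Of the 53 members, 15 reached 10 FPKM in at least 1 library, 8 peaked between 1 and 10 FPKM, and 30 stayed under 1 FPKM in every library. The 15 were 6 of the wound and basal pairs (Krt5, Krt14, Krt6a, Krt6b, Krt16 and Krt17), Krt15, the suprabasal Krt1, Krt10, Krt77, Krt78 and Krt80, and Krt23, Krt75 and Krt79. Keratins that define epidermis were abundant in every library, and in NC Krt10 ranked 9 and Krt14 ranked 12 of all genes.

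The summed FPKM of the 53 keratins was 21228 in NC, 16179 in PRP, 11175 in MNs and 7494 in PRP-MNs. This was 4.12%, 3.23%, 2.49% and 1.63% of the FPKM sum of each library. The sum was 2.83-fold lower in PRP-MNs than in NC, 1.90-fold lower in MNs and 1.31-fold lower in PRP. A bulk library cannot tell fewer keratinocytes from less keratin RNA per keratinocyte. Other cell types moved beside the keratins. Summed levels of 16 general epithelial genes were 3927 FPKM in NC, 2548 in PRP, 1663 in MNs and 1134 in PRP-MNs, the same order as the keratins. All 16 were present in each library. In PRP-MNs against NC 14 of them were at least 2-fold lower, where 11.5% of all genes were. Their median was −1.84 on the log2 scale of FPKM + 1, used for every log2 difference here. A list of 10 leukocyte genes summed to 130 FPKM in NC, 514.8 in PRP, 532 in MNs and 1647 in PRP-MNs, with no gene at 0. A list of 8 fibroblast genes summed to 891, 1874, 7248 and 1000.2 FPKM in the same order, and 6 endothelial genes to 22.3, 65.1, 123 and 186 FPKM. A list of 6 skeletal muscle genes summed to 5897 FPKM in NC, 10191 in PRP, 5640 in MNs and 8467 in PRP-MNs. The part of these cell types in the keratin differences was not tested.

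Basal, suprabasal and wound keratins took different shares of the keratin sum in each library, and a share does not depend on how a library was scaled. Suprabasal keratins held 57.2% of it in NC, 42.9% in PRP, 20.2% in MNs and 12.9% in PRP-MNs. Wound keratins held 11.3% in NC, 21.3% in PRP, 27.1% in MNs and 49.9% in PRP-MNs. Basal keratins varied less, between 30.1% in NC and 47.0% in MNs, with 34.7% in PRP and 36.8% in PRP-MNs. The ratio of suprabasal to basal FPKM was 1.90 in NC, 1.24 in PRP, 0.428 in MNs and 0.350 in PRP-MNs. These sums are led by the most abundant members. From medians of log2 values over each group's members the ratio was 0.111 in NC, 0.0808 in PRP, 0.0374 in MNs and 0.0969 in PRP-MNs. By this measure PRP-MNs lay above PRP and MNs. In every library the median suprabasal member was Krt80 and the median basal member Krt5. This order is therefore that of Krt80 to Krt5 and not of the groups as a whole. The ratio of wound to basal FPKM was 0.376 in NC, 0.614 in PRP, 0.576 in MNs and 1.36 in PRP-MNs. The sums of type I and type II keratins kept close to a fixed ratio across the libraries, between 1.16 in MNs and 1.23 in PRP, while the single pairs shifted as described below. This depended on Krt77, an abundant type II member. With Krt77 left out the ratio was 1.59 in NC, 1.46 in PRP, 1.21 in MNs and 1.24 in PRP-MNs.

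**Figure D1:**
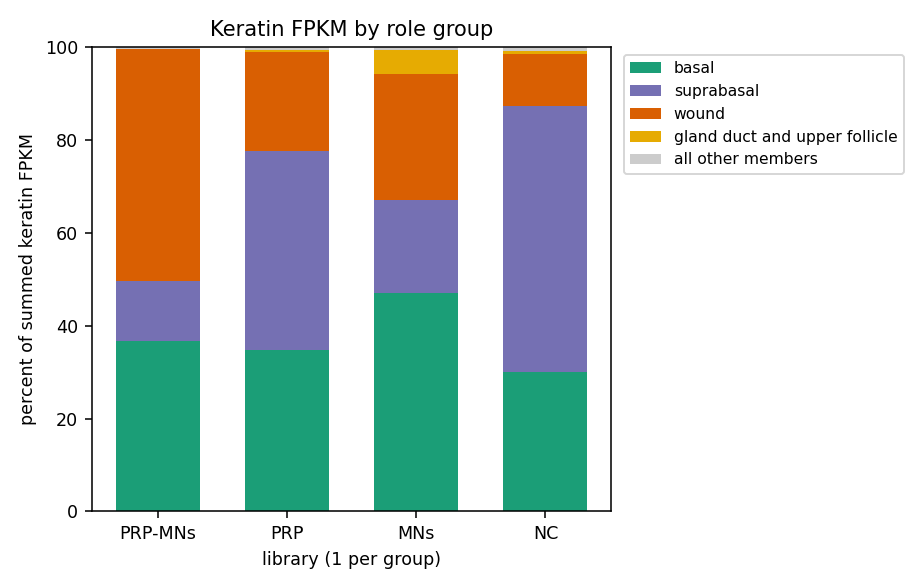
Percent of the summed keratin FPKM (vertical axis) held by each role group in the 4 libraries (1 bar per library). The suprabasal part was 57.2% in NC and 12.9% in PRP-MNs, the wound part 11.3% and 49.9%, and the gland duct and upper follicle keratin Krt79 held 5.06% in MNs.

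The counts of members past 2-fold were set beside the same count over all genes at 1 FPKM or more in either library. In PRP-MNs against NC 21 members were compared, and 14 were at least 2-fold lower, where 11.5% of all genes were, and 2 (Krt6a and Krt18) at least 2-fold higher, where 17.6% of all genes were. Krt24, Krt25, Krt27, Krt71 and Krt84 entered this comparison through NC alone and Krt18 through PRP-MNs alone. This fixed the direction of their differences in advance, but not their size. Of the 15 members at 1 FPKM or more in both libraries, 9 were lower and 1 higher, where 10.1% and 14.3% of all genes at that level in both were. In PRP against NC 20 members were compared, 3 (Krt27, Krt71 and Krt77) were lower against 1.46% of all genes, and none was higher against 7.78%. Krt25, Krt27 and Krt71 had entered through NC alone. Of the 17 members at 1 FPKM or more in both, 1 (Krt77) was lower and 0 were higher. Of all such genes 1.15% were lower and 6.61% higher. In MNs against NC 22 members were compared, 8 were higher against 15.7% of all genes and 7 lower against 7.12%. Krt28 and Krt73 had entered through MNs alone and Krt84 through NC alone. Of the 19 members at 1 FPKM or more in both, 7 were higher and 6 lower, where 13.0% and 6.27% of all such genes were. These 3 comparisons share the NC library.

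PRP-MNs was also set against each single treatment. Against PRP 18 members were compared, 11 were at least 2-fold lower, where 7.5% of all genes were, and only Krt18 was higher, where 9.54% were. Against MNs 22 members were compared, 12 were lower, where 7.39% of all genes were, and none was higher, where 7.16% were. Krt24 and Krt84 entered the first of these through PRP alone and Krt18 through PRP-MNs alone. Krt24, Krt25, Krt27, Krt28, Krt71 and Krt73, 6 of the 12 lower members, entered the second through MNs alone. Of the 15 members at 1 FPKM or more in both libraries, 9 were lower in PRP-MNs than in PRP, where 6.57% of all such genes were, and 6 lower than in MNs, where 5.80% were. By role, 6 of the 7 suprabasal keratins passed the filter, and their median log2 difference from NC was −3.33 in PRP-MNs, −2.30 in MNs and −0.71 in PRP. The medians of the 3 basal keratins were −1.77, −0.25 and −0.31, and those of the 4 wound keratins 0.65, 0.17 and 0.62, in the same order of libraries. Over all genes the medians were 0.14, 0.16 and 0.04. Inner root sheath keratins had a median of 1.20 in MNs over 5 of 7 members, and −1.13 in PRP-MNs and −1.21 in PRP over the 3 that had passed through NC alone. When differences were read relative to the general epithelial list, the split in PRP-MNs against NC became 6 members higher and 6 lower, where 85.8% and 1.12% of all genes were. The same reading gave 3 higher and 0 lower in PRP against NC (22.4% and 0.133% of all genes) and 11 and 7 in MNs against NC (50.4% and 2.08%). It gave 6 and 7 in PRP-MNs against PRP (69.5% and 0.996%) and 5 and 7 in PRP-MNs against MNs (46.2% and 1.75%).

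**Figure D2:**
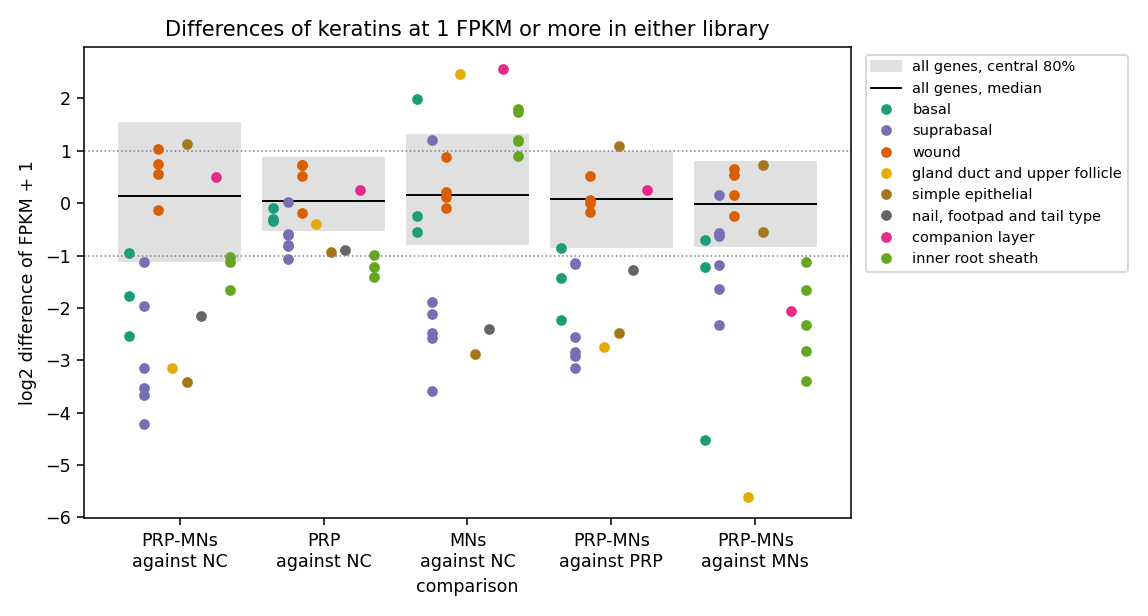
Log2 difference of FPKM + 1 (vertical axis) for each keratin at 1 FPKM or more in either library, coloured by role group, in the 5 comparisons. Grey bands hold most genes, the black lines are the medians of all genes, and dotted lines mark 2-fold. In PRP-MNs against NC every suprabasal keratin shown lies below the lower dotted line, and the wound keratins lie between −0.12 and 1.03.

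The basal pair was abundant in every library. Krt14, the type I partner of basal keratinocytes, was at 3966 FPKM in NC, 3339 in MNs, 3700.3 in PRP and 2055 in PRP-MNs, and it ranked between 9 and 14 of all genes in each library. Krt5, its type II partner, was at 2348 FPKM in NC, 1605 in MNs, 1848 in PRP and 689 in PRP-MNs. PRP-MNs was thus the lowest library for both, by 1.93-fold against NC for Krt14 and by 3.41-fold for Krt5. The ratio of Krt14 to Krt5 was 1.69 in NC, 2.002 in PRP, 2.08 in MNs and 2.98 in PRP-MNs. Relative to the general epithelial list both turned sign in PRP-MNs against NC, Krt5 from −1.77 to 0.069 and Krt14 from −0.95 to 0.89 on the log2 scale. In MNs against NC they turned as well, Krt5 from −0.55 to 0.30 and Krt14 from −0.25 to 0.60.

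Krt15 is a basal keratin that is also known from the follicle bulge, where hair follicle stem cells reside, and it did not follow the basal pair. It was at 78.3 FPKM in NC, 313 in MNs, 63.0 in PRP and 12.6 in PRP-MNs. MNs stood 4.002-fold above NC and PRP-MNs 6.20-fold below it, and the 2 libraries with microneedles were the extremes of the 4. The distance between PRP-MNs and MNs was 24.8-fold. Krt15 (ENSMUSG00000054146) lies on chromosome 11 from 100131758 to 100135928.

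Most suprabasal keratins were far below NC in both libraries with microneedles. Krt10, the type I keratin of cells that have left the basal layer, was at 6056 FPKM in NC, 1079 in MNs, 3428 in PRP and 475 in PRP-MNs. Its partner Krt1 was at 3317 FPKM in NC, 900.5 in MNs, 2169.6 in PRP and 287 in PRP-MNs. Both stood in the order NC, PRP, MNs, PRP-MNs from high to low, and PRP-MNs was 12.7-fold below NC for Krt10 and 11.5-fold for Krt1. Krt77, a type II keratin of suprabasal mouse epidermis whose human counterpart is known from sweat gland ducts, was at 2482 FPKM in NC, 205 in MNs, 1182 in PRP and 132 in PRP-MNs. It had the largest log2 difference of any keratin in PRP-MNs against NC (−4.22), and differed by −1.07 in PRP against NC and by −3.59 in MNs against NC. Krt77 (ENSMUSG00000067594) begins 7.94 kb from the end of Krt1 on chromosome 15, and its ratio to Krt1 was 0.748 in NC, 0.545 in PRP, 0.460 in PRP-MNs and 0.228 in MNs.

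Krt78, a keratin of upper epidermal layers, was at 29.1 FPKM in NC, 4.08 in MNs, 19.0 in PRP and 2.41 in PRP-MNs. Krt80, a type II keratin tied to late differentiation, was at 259 FPKM in NC, 59.1 in MNs, 148 in PRP and 65.8 in PRP-MNs, and so differed less between the 2 libraries with microneedles. Krt24, a type I keratin of differentiated keratinocytes, was the exception of the group. It was at 1.32 FPKM in NC, 4.34 in MNs, 1.34 in PRP and 0.064 in PRP-MNs, which made it highest in MNs, where the other detected suprabasal keratins were at least 2-fold below NC. Krt2, which marks late suprabasal cells of ear, tail and sole skin of the mouse, stayed between 0.110 and 0.277 FPKM.

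Krt23, a type I keratin counted here with those of simple epithelia, had levels ordered like those of Krt1 and Krt10. It was at 169 FPKM in NC, 22.2 in MNs, 88.0 in PRP and 14.9 in PRP-MNs. The order NC above PRP above MNs above PRP-MNs held for 7 of the 23 members that reached 1 FPKM (Krt1, Krt5, Krt10, Krt14, Krt23, Krt77 and Krt78) and for 11.8% of 14475 genes at that level. Both libraries with microneedles were below both without in 9 of the 23 members (the same 7, Krt80 and Krt84), against 21.1% of all genes. Both were above both without in 3 members (Krt6a, Krt18 and Krt75), against 34.4% of all genes. Krt84 reached 1 FPKM only in NC and PRP, so the filter fixed its place in advance. Krt18 was among the 23 through PRP-MNs alone. These orders were chosen after the values were seen.

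**Figure D3:**
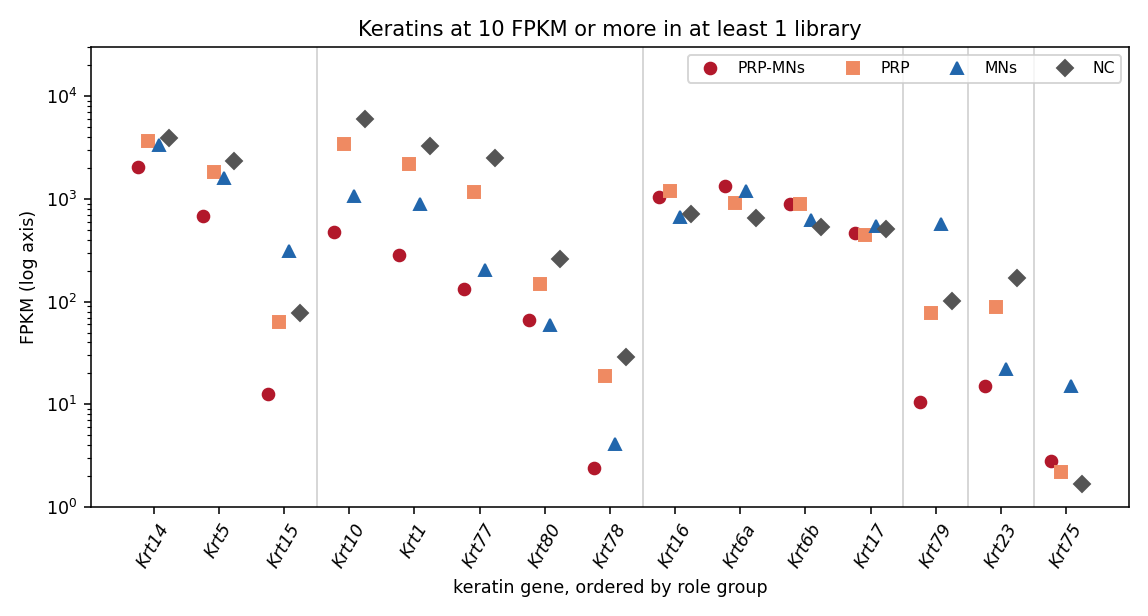
FPKM on a log axis (vertical) of the 15 keratins that reached 10 FPKM, with 1 point per library and vertical lines between role groups. Suprabasal keratins spread over about the distance from 475 to 6056 FPKM in Krt10, the wound keratins lie close together, and Krt15, Krt79 and Krt75 are highest in MNs.

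Wound keratins differed less between the libraries than the suprabasal keratins that reached 1 FPKM, with the highest library 1.24 to 2.05-fold above the lowest. Their sum was 2402 FPKM in NC, 3031 in MNs, 3446 in PRP and 3742 in PRP-MNs. In PRP-MNs, where their share was largest, their sum was highest and the sum of all keratins lowest. Krt6a, a type II keratin switched on in keratinocytes at a wound edge, was at 646 FPKM in NC, 1187 in MNs, 923 in PRP and 1325 in PRP-MNs. Krt6b, its near-identical neighbour, was at 536 FPKM in NC, 622 in MNs, 895 in PRP and 901 in PRP-MNs. The 2 copies summed to 1183 FPKM in NC, 1809 in MNs, 1818 in PRP and 2226 in PRP-MNs. All 3 treated libraries thus lay above NC, by 1.88-fold in PRP-MNs and by 1.54-fold and 1.53-fold in PRP and MNs, which is under the 2-fold level used here.

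Krt16, a type I keratin made with Krt6 in activated keratinocytes, was at 715 FPKM in NC, 671 in MNs, 1184 in PRP and 1053 in PRP-MNs. Krt17, a type I keratin of wounds and of follicle sheaths, was at 505 FPKM in NC, 551 in MNs, 443 in PRP and 463 in PRP-MNs. Krt17 was the most even of the detected keratins, with its highest library 1.24-fold above its lowest. The ratio of Krt16 to Krt17 was 2.28 in PRP-MNs and 2.67 in PRP, but 1.22 in MNs and 1.42 in NC. Both libraries with PRP were above both without in Krt16 and Krt6b, 2 of the 23 members, against 12.7% of all genes. Both were below both without in 8 members (Krt15, Krt17, Krt25, Krt27, Krt28, Krt71, Krt73 and Krt79), against 11.8% of all genes. Krt25, Krt27 and Krt71 reached 1 FPKM only in MNs and NC, so the filter fixed their place in this pattern in advance. Krt28 and Krt73 were among the 23 through MNs alone. The count is therefore a description.

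In MNs a set of keratins known from the follicle and its surroundings was higher than in the other 3 libraries. Krt79, a type II keratin of the upper follicle canal and the sebaceous gland duct, was at 101 FPKM in NC, 565 in MNs, 77.1 in PRP and 10.6 in PRP-MNs. MNs was 5.58-fold above NC and 53.4-fold above PRP-MNs, and PRP was within 2-fold of NC. Krt79 (ENSMUSG00000061397, chromosome 15 from 101929332 to 101940324) lies 5.68 kb from Krt78, which was 7.14-fold lower in MNs than in NC. Krt75, a type II keratin of the companion layer around the inner root sheath, was at 1.69 FPKM in NC, 14.9 in MNs, 2.20 in PRP and 2.81 in PRP-MNs. Among keratins higher in MNs than in NC it had the largest log2 difference (2.57).

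Inner root sheath keratins were low but showed the same library apart. Krt71, a type II keratin of that sheath, was at 9.52 FPKM in MNs and 2.15 in NC, 0.185 in PRP, and was listed at 0 in PRP-MNs. Its type I partners Krt25, Krt27 and Krt28 were at 6.06, 4.33 and 2.41 FPKM in MNs and at 1.04, 1.31 and 0.505 FPKM in NC. In PRP Krt25 was at 0.028 FPKM and Krt27 and Krt28 were listed at 0, and in PRP-MNs Krt25 was listed at 0 and Krt27 and Krt28 were at 0.055 and 0.085 FPKM. On their longest annotated transcripts the MNs values stood for about 387 fragments of Krt71, 224 of Krt25, 125 of Krt27 and 72.9 of Krt28. Krt73 was at 1.28 FPKM in MNs and at most 0.228 in the others, and Krt26 and Krt72 stayed under 1 FPKM. All 7 members summed to 24.6 FPKM in MNs, 5.83 in NC, 0.276 in PRP and 0.192 in PRP-MNs. A level at least 2-fold above each of the other libraries was found in MNs for 8 of the 23 members (Krt15, Krt24, Krt25, Krt27, Krt28, Krt71, Krt75 and Krt79), and for 2.77% of all genes. This pattern was chosen after MNs was seen to be high, and Krt28 was among the 23 through MNs alone and had to be highest there, so the count is a description.

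Genes of other structures moved beside these follicle keratins. A list of 7 sebaceous gland genes summed to 2076 FPKM in MNs, 454 in NC, 587 in PRP and 441 in PRP-MNs. All 7 were at least 2-fold higher in MNs than in NC, where 15.7% of all genes were. All 7 were also at least 2-fold lower in PRP-MNs than in MNs, where 7.39% of all genes were. In NC and in PRP-MNs 6 of the 7 reached 1 FPKM, so the last entered both comparisons through MNs alone. None of the 7 was at 0 in any library. The wax synthesis gene Far2 was at 249 FPKM in MNs and 1.23 in PRP-MNs, and Elovl3 at 244 and 1.99 FPKM. The summed fibroblast genes were also highest in MNs, and 7 of the 8 were at least 2-fold higher there than in NC (15.7% of all genes). The part of these cell types in the levels of the follicle keratins was not tested.

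**Figure D4:**
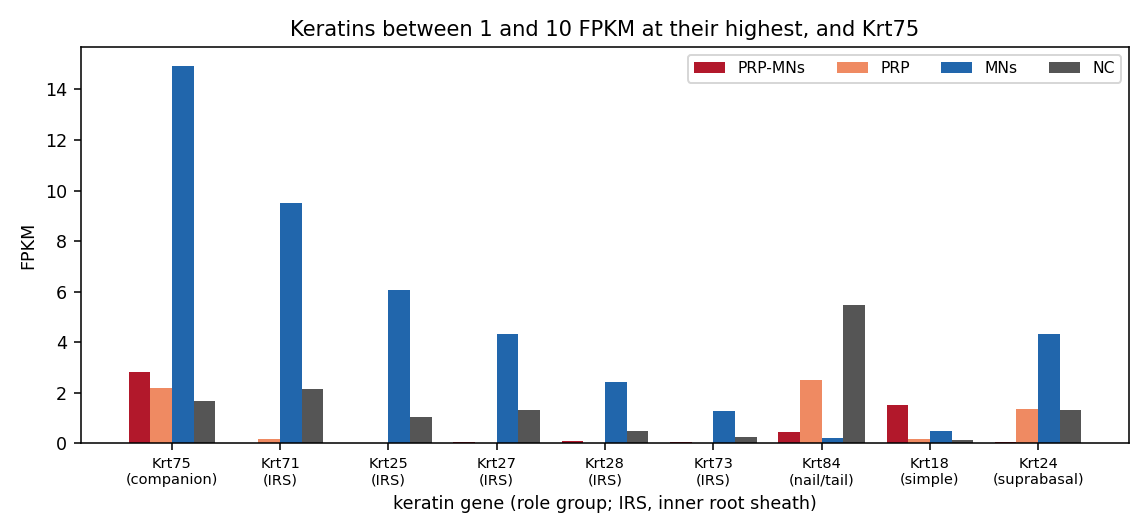
FPKM (vertical axis, linear) of the 8 keratins between 1 and 10 FPKM at their highest and of Krt75, with 1 bar per library. The inner root sheath keratins Krt71, Krt25, Krt27, Krt28 and Krt73, Krt24 and Krt75 are highest in MNs, Krt84 in NC (5.47 FPKM) and Krt18 in PRP-MNs (1.4998 FPKM).

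Along the chromosomes, some close neighbours stood on opposite sides of NC. On chromosome 11 the run Krt24, Krt25, Krt26, Krt27, Krt28 is followed by Krt10 after 10.4 kb. In MNs against NC, Krt24, Krt25, Krt27 and Krt28 were higher by 1.20, 1.79, 1.20 and 1.18 on the log2 scale, and Krt10 was lower, with a difference of −2.49. On chromosome 15 Krt5 (101707070 to 101712898) lies 12.8 kb from Krt6a and 21.1 kb from Krt71. The 3 genes differed by −0.55, 0.88 and 1.74 in MNs against NC. Krt1 and Krt77 stood below NC in all 3 treated libraries, and Krt2, 27.3 kb before Krt1, was under 1 FPKM throughout.

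**Figure D5:**
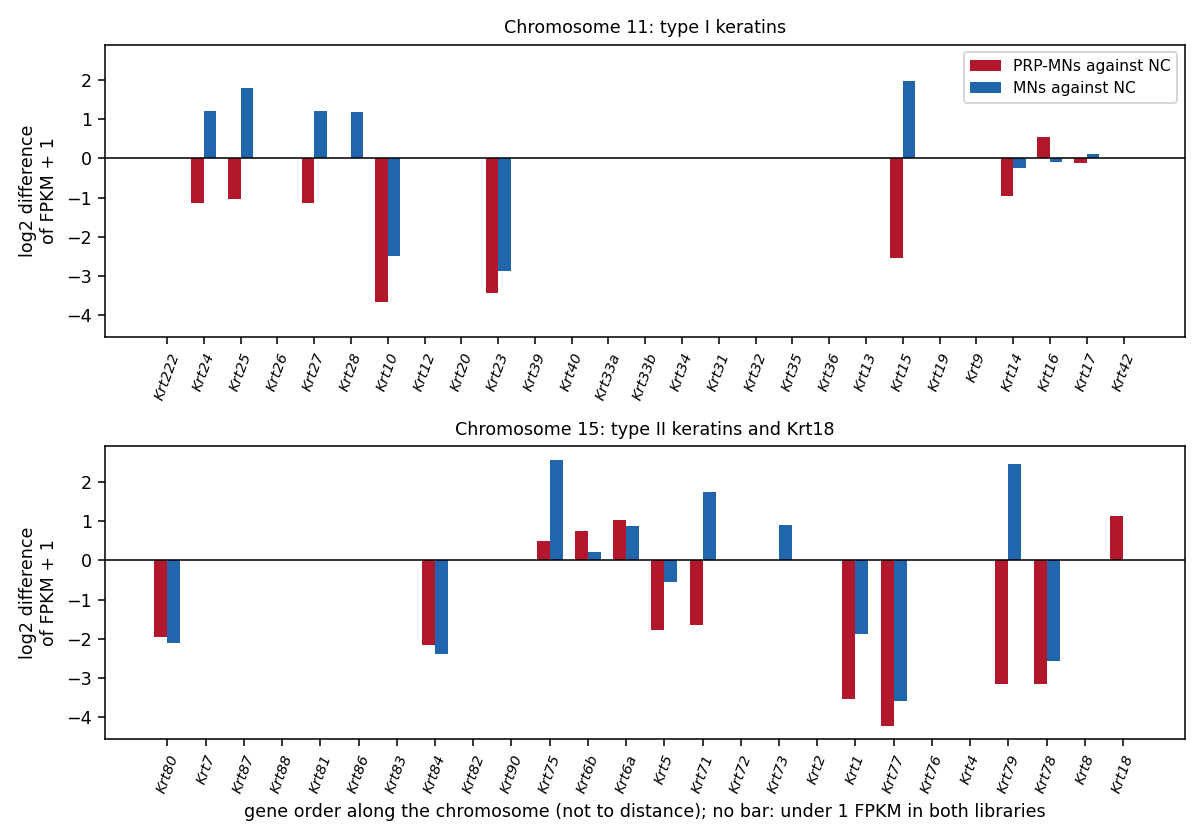
Log2 difference of FPKM + 1 (vertical axis) against NC of PRP-MNs and MNs, with genes in their order on chromosome 11 and chromosome 15 (horizontal axis, not to distance) and no bar where a gene was under 1 FPKM in both libraries. Krt15, Krt24, Krt25, Krt27, Krt71 and Krt79 are at least 2-fold above NC in MNs and at least 2-fold below it in PRP-MNs; both comparisons share NC.

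Keratins of nail, footpad and tail skin were low. Krt84, known from nail, tongue and tail scale, was at 5.47 FPKM in NC, 2.49 in PRP, 0.443 in PRP-MNs and 0.227 in MNs. The others of this group, Krt9, Krt36, Krt42 and Krt76, stayed at or under 0.619 FPKM. Of simple epithelial keratins other than Krt23, Krt18 reached 1.4998 FPKM in PRP-MNs against 0.135 in NC, about 37.0 and 3.76 fragments. Its usual partner Krt8 was at 0.220 FPKM in PRP-MNs and listed at 0 in NC. Krt7, Krt19 and Krt20 stayed at or under 0.975 FPKM. Krt20 marks Merkel cells, the touch cells of the epidermis. In a list of 6 Merkel cell genes Atoh1, their defining factor, was at most 0.059 FPKM and listed at 0 in PRP and NC, and Piezo2, Sox2 and Krt20 stayed under 1 FPKM. Isl1 was at 5.37 FPKM in PRP-MNs and 1.35 in NC, and Chga at 0.627 and 5.12 FPKM, so that the list did not move one way.

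The mucosal and corneal keratins Krt4, Krt12 and Krt13 stayed at or under 0.494 FPKM. All 13 hair shaft keratins in the table (Krt31, Krt32, Krt33a, Krt33b, Krt34, Krt35, Krt39, Krt40, Krt81, Krt82, Krt83, Krt86 and Krt87) stayed at or under 0.739 FPKM. Krt88, Krt90 and Krt222, which were put in no role group, stayed at or under 0.638 FPKM, and Krt88 was listed at 0 in every library. Krt74 and Krt85 were not analysed here.

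A list of 19 genes was read, made of proteins that bind or bundle keratins and of other keratinocyte genes such as Krtdap. In PRP-MNs against NC 18 were compared, 14 were at least 2-fold lower and 0 higher, where 11.5% and 17.6% of all genes were, with a median of −2.03 against 0.14 for all genes. The largest differences were those of filaggrin 2 (Flg2), a protein of the cornified layer, at 8.93 FPKM in PRP-MNs and 167 in NC, and of Krtdap, a keratinocyte differentiation gene, at 497 and 6947 FPKM. Hornerin (Hrnr), an S100 fused type protein of the cornified layer, was at 23.6 FPKM in PRP-MNs and 277 in NC, and epiplakin (Eppk1), which binds keratin filaments, at 4.64 and 58.1 FPKM. The filament anchors plectin (Plec) and dystonin (Dst) differed by 0.39 and −0.75. In MNs against NC 11 of 18 were lower (7.12% of all genes; median −1.25), and in PRP against NC 4 of 17 (Eppk1, Flg2, Krtdap and Tchh; 1.46% of all genes; median −0.55). Trichohyalin (Tchh), a protein of the inner root sheath, was at 6.54 FPKM in MNs, 4.15 in NC, 0.928 in PRP and 0.567 in PRP-MNs. Its highest library was thus that of the inner root sheath keratins. Tchh was among the lower genes in PRP-MNs against NC and in PRP against NC. It entered both comparisons through NC alone, which fixed the direction of its differences in advance.

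Transcription factors that act on keratin genes were read from a list of 23. In PRP-MNs against NC 20 were compared, 11 were at least 2-fold lower and 0 higher, where 11.5% and 17.6% of all genes were, with a median of −1.42. Gata3 was at 4.499 FPKM in PRP-MNs and 37.6 in NC, Grhl1 at 17.2 and 105.0, Klf4, a driver of the late epidermal programme, at 44.1 and 256, and Ovol1 at 14.3 and 78.5 FPKM. Trp63, the p63 gene of basal keratinocytes, was at 66.3 FPKM in NC, 47.5 in MNs, 50.1 in PRP and 22.4 in PRP-MNs. In MNs against NC 9 of 21 were lower and 2 higher, where 7.12% and 15.7% of all genes were (median −0.81). The higher ones were Sox9, a follicle lineage factor (7.93 against 1.86 FPKM), and Gli2, a hedgehog effector (1.86 against 0.192 FPKM). Gli2 entered through MNs alone, which fixed the direction of its difference in advance. In PRP against NC 2 of 20 were lower, Fosl1 (9.99 against 30.1 FPKM) and Ovol1 (29.5 against 78.5 FPKM), where 1.46% of all genes were, with a median of −0.54. Hoxc13, which acts on hair shaft keratin genes, stayed at or under 0.878 FPKM. Sox9, Gli2, Fosl1, Plec, Dst, Tchh, Trp63, Hoxc13 and the Merkel cell genes were named after their values were seen.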

How the data were processed

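RNA of 4 mouse skin libraries was sequenced, 1 per group, and the authors deposited 1 table of FPKM per gene. The submitters' processing notes name GRCm38 as the genome build. The read mapper, the quantifier, its annotation and its handling of fragments shared by similar genes are not given in the sources used here. Differences were computed as log2 ratios of FPKM + 1 for genes at 1 FPKM or more in at least 1 of the 2 libraries and counted at 2-fold, which understates low genes. Every member is accounted for, with full values for those at 10 FPKM or more. From the other lists up to 4 genes with the largest difference between PRP-MNs and NC and at least 5 FPKM were to be named, and the report says which names fall outside this. The members, role groups and lists were chosen with earlier results of these data known. Gene positions and coding sequences came from GENCODE M21 and promoters from RefSeq. Alternatives changed the pseudocount, the filter, the scaling, the fold and the members summed. The scripts used Python 3.11.15, pandas 2.3.3, numpy 2.4.6 and Biopython 1.88, and were tested on simulated data.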

Additional observations from a re-analysis of the deposited data

Results flagged for a closer look

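For 3 of the 23 keratins that reached 1 FPKM, the difference of MNs from NC and the difference of PRP-MNs from PRP, 2 contrasts that share no library, were both at least 2-fold and had opposite signs. Krt79 differed by 2.47 and −2.75 on the log2 scale, so that the second contrast minus the first was −5.22. Krt15 differed by 1.99 and −2.23 (−4.22), and Krt24 by 1.20 and −1.14 (−2.34). Such opposite signs were found in 111 of 14475 genes (0.767%). The reverse layout, PRP from NC and PRP-MNs from MNs, gave no keratin and 87 genes (0.601%). With single libraries this difference was not tested.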

How the results depend on the processing

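With 1 library per group no library could be left out and no paired analysis was possible because groups share no second replicate number. FPKM steps limit members near 0. A result is said to have moved when it changed by more than 1.5 times. Rescaling to the same FPKM sum moved the median of all genes by 0.14 in PRP-MNs against NC, 0.18 in MNs against NC and 0.11 in PRP-MNs against PRP.
Reading differences relative to the general epithelial list had the most effects. Members higher and lower were then 6 and 6 in PRP-MNs against NC and 3 and 0 in PRP against NC. They were 6 and 7 in PRP-MNs against PRP, and 5 and 7 in PRP-MNs against MNs. The shares of all genes beside these counts are given above. Medians in PRP-MNs against NC were 0.069 for basal keratins, which reversed, −1.50 for suprabasal, 2.49 for wound and 0.70 for inner root sheath keratins, which reversed. In MNs against NC they were 0.60, −1.46, 1.02 and 2.05 in that order, in PRP-MNs against PRP −0.21, −1.49 and 1.25 for the first 3 groups, and in PRP-MNs against MNs −0.24, 0.069, 1.32 and −1.36. Members at least 2-fold apart as deposited that changed sign were Krt5 (0.069), Krt24 (0.71), Krt25 (0.81), Krt27 (0.70) and Krt71 (0.18) in PRP-MNs against NC, and Krt24 (0.075) and Krt80 (0.053) in PRP-MNs against PRP. A further 17 differences under 2-fold changed sign over the 5 comparisons, among them Krt14 (0.89) and Krt17 (1.71) in PRP-MNs against NC. Every difference there is read against a lower epithelial level.
With a filter at 5 FPKM members higher were 1 in PRP-MNs against NC, 5 in MNs against NC and 0 in PRP-MNs against PRP, and 1 was lower in PRP against NC. Centred on all genes, 0 were higher in PRP-MNs against NC. At 1.5-fold, 2 were higher and 10 lower in PRP against NC and 2 higher in PRP-MNs against MNs. With a pseudocount of 0.1, 5 were lower in PRP against NC and 1 higher in PRP-MNs against MNs.
Inner root sheath medians with a pseudocount of 0.1 were −3.50 in PRP-MNs against NC, −3.15 in PRP against NC, 2.08 in MNs against NC and −4.84 in PRP-MNs against MNs. Without a filter they were −0.50, −0.59 and, in PRP-MNs against MNs, −1.65, and with the filter at 5 FPKM −3.11 in the last. The sebaceous gland list median in PRP-MNs against MNs was −4.51 with a pseudocount of 0.1.
Without the most abundant member the basal share was 12.9% in PRP-MNs, 15.3% in PRP and 24.5% in MNs, where that member is Krt14, and 42.1% in NC, where it is Krt10, so these shares leave out different genes. Without Krt6a and Krt6b the wound share was 6.08% in NC, 13.0% in MNs, 11.3% in PRP and 28.8% in PRP-MNs. From medians of log2 values the suprabasal to basal ratio was 0.111 in NC, 0.0374 in MNs, 0.0808 in PRP and 0.0969 in PRP-MNs. This is another order of libraries than from the sums, set in every library by Krt80 and Krt5 as the median members.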
